A study of Homo sapiens with 6 samples.

Results

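The interleukin-1 receptor family comprises cell-surface receptors that carry signals of the IL-1, IL-33, IL-36 and IL-18 cytokines into cells. Binding of the transcription factors FOSL2 and JUNB was described around 7 of its genes: IL1R2, IL1R1, IL1RL2, IL1RL1, IL18R1 and IL18RAP, which lie side by side on chromosome 2, and IL1RAP on chromosome 3. Regions were taken when any of their bases lay inside a gene body or within 50 kb of one. This gave 52 regions, 33 of FOSL2 and 19 of JUNB, out of 115765 deposited for both factors. Regions were chosen by position and not by a measured value, but the genes were chosen with earlier results of these data known.

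The regions come from ChIP-seq (chromatin immunoprecipitation followed by sequencing) in the human keratinocyte line HaCaT, which arose from adult skin by spontaneous immortalisation and was grown in serum-containing medium with no treatment named in the labels. There were 6 libraries, 3 per factor, made by ChIPmentation, where adapters are put onto the bead-bound chromatin by a transposase. A different antibody was used for each factor. A single list of regions stood for the 3 libraries of each factor, so values have no replicate error, the depth is unknown, and no test of a difference was made. RNA was not measured in the files used here, so whether HaCaT cells express these receptors, and keratinocyte markers in general, was not examined.

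FOSL2, of the FOS family, and JUNB, of the JUN family, are subunits of AP-1, a dimer that binds DNA. Its motif was searched for here with the broad pattern TGANTCA, where N is any base. Signalling receptors of this family pair with an accessory chain: IL1RAP serves the IL-1 receptor IL1R1, the IL-33 receptor IL1RL1 (ST2) and the IL-36 receptor IL1RL2, whereas IL18R1 pairs with IL18RAP. IL1R2 is a decoy that binds IL-1 but lacks the intracellular signalling domain. In skin, IL-1, IL-36 and IL-33 released by keratinocytes act in inflammation and in the response to damage.

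The 7 genes fell into 3 patterns. IL1R1, IL1RL2 and IL1RAP held regions of both factors inside their bodies, IL1R2 and IL1RL1 held FOSL2 regions alone, and IL18R1 and IL18RAP held none. Over all 19974 protein-coding genes, 59.4% held a FOSL2 region inside the body, 49.4% a JUNB region and 39.4% a FOSL2 region that touched a JUNB region. A region of either factor lay in the body of 13103 of them. Shares of all genes with each of the 3 patterns were not computed, so nothing about the family is read from the split. With 50 kb added on either side, all 7 genes had a FOSL2 region (92.9% of all genes), 5 had a JUNB region (83.9% of all genes) and 5 had a shared region (77.6% of all genes). Within 10 kb, 5 had a FOSL2 region (76.9% of all genes), 4 a JUNB region (64.0%) and 4 a shared region (53.3%). Shares of this size near the background say nothing particular about the family. Genes of the cluster also share regions, because their 50 kb surroundings overlap.

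**Figure D1:**
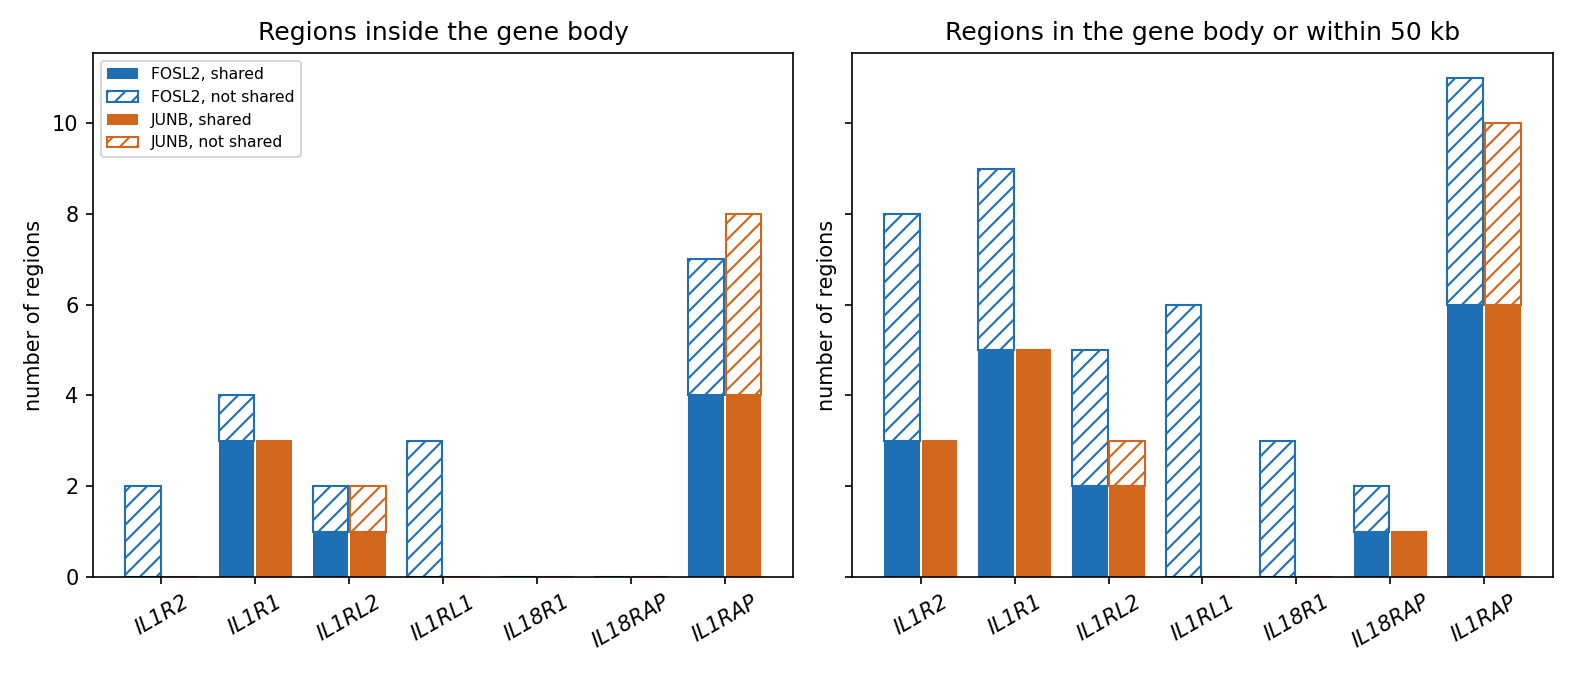
Number of FOSL2 (blue) and JUNB (orange) regions for each of the 7 genes, in chromosomal order, inside the gene body (left) and within 50 kb of it (right). Solid bars are regions that touch a region of the other factor and hatched bars those that do not. IL1RAP has the highest bars in both panels, with 7 FOSL2 and 8 JUNB regions in its body, and IL18R1 and IL18RAP have none in theirs.

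Among the starts listed in the RefSeq promoter table, the only start of a member that lay under a region was an internal start of IL1RL1, and only FOSL2 was found there. RefSeq promoter windows, from 250 bases before to 50 after a start, were available for 17 starts of the 7 genes. A FOSL2 region touched 1 of them (16.3% of all 34789 windows were touched) and a JUNB region touched none (17.1% of all windows). IL1RL1 is known to be transcribed from a distal promoter and from a proximal one inside the longer gene. The FOSL2 region at the internal start ran from chr2:102336274-102337618 (hg38), with a fold enrichment of 7.30 and its summit 42 bp upstream of the start at 102337257. Fold enrichment is the authors' ratio of signal over background for a region, and this value exceeded that of 68.2% of FOSL2 regions. The same window was the only one of the 17 with a match to TGANTCA, a pattern that reads the same on both strands. The match, TGATTCA at chr2:102337066-102337072, began 191 bp before the start. Its middle base, a T at the open position of the pattern, lay 146 bp from the FOSL2 summit. Whether this match is bound was not tested. The motif was present in 7.69% of all windows, in 16.6% of those touched by a FOSL2 region and in 5.96% of the others. The related motif TGACGTCA, also the same on both strands, was in none of the 17 windows and in 1.84% of all windows. The 250 bases upstream of both IL1RL1 starts (RefSeq, GRCh38.p14, plus strand) are shown, with the TGANTCA match in capitals. They set the start under a FOSL2 region beside the outer start, whose window no listed region touched. The first is chr2:102337007-102337256 and the second is chr2:102311313-102311562.
IL1RL1 internal start: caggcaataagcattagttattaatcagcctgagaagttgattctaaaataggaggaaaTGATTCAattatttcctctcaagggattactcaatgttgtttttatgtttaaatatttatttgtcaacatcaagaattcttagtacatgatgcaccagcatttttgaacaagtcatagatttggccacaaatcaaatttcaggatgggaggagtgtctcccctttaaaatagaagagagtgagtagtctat
IL1RL1 outer start: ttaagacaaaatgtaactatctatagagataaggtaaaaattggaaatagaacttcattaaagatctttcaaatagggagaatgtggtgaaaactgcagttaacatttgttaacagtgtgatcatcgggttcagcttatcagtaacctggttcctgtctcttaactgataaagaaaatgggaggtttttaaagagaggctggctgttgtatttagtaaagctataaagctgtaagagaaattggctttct

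The chromosome 2 cluster, with 50 kb on either side, spanned chr2:101941960-102502565 and held 22 FOSL2 and 9 JUNB regions. Their density was 39.2 per Mb for FOSL2 and 16.1 per Mb for JUNB, where chromosome 2 as a whole had 25.6 and 13.0. The window was drawn around genes and the chromosome also holds stretches without genes, so no enrichment is read from this difference. Of the JUNB regions, 8 of 9 were shared, that is, they overlapped a FOSL2 region by 1 bp or more (88.9%, 95% Wilson interval 56.5 to 98.0), against 78.5% of the whole JUNB list. Of the FOSL2 regions, 8 of 22 were shared (36.4%, 19.7 to 57.0), against 41.1% of the whole FOSL2 list. Intervals cover counting error only. Going from IL1R2 to IL18RAP, 7 of the 8 shared pairs lay before the end of IL1RL2 and the last lay beyond IL18RAP. The 6 FOSL2 regions in and near IL1RL1 had no JUNB partner.

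**Figure D2:**
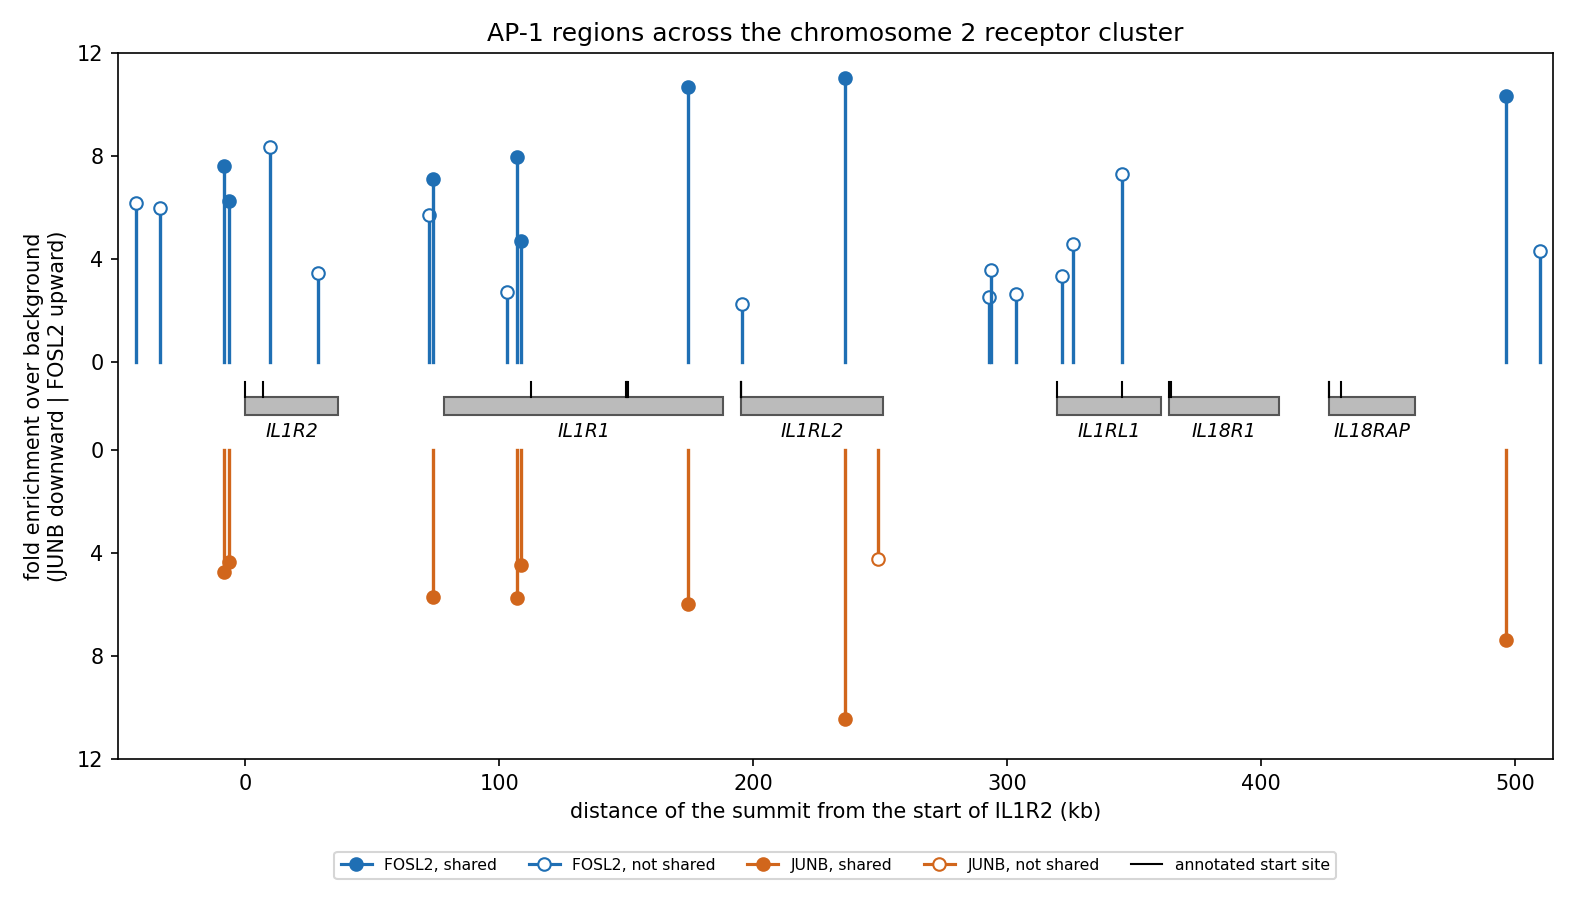
Summits of the 22 FOSL2 regions (blue, upward) and 9 JUNB regions (orange, downward) along the receptor cluster, by distance in kb from the start of IL1R2. Stem height is the authors' fold enrichment, each on its own list's scale. Filled circles are shared regions, open circles are not shared, grey boxes are gene bodies and black ticks are starts listed in the promoter table. The highest stems of both factors stand in IL1RL2, at 11.0 for FOSL2 and 10.4 for JUNB, and no stem stands over IL18R1 or IL18RAP.

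IL1RL2, the IL-36 receptor gene, carried the strongest region of either factor among all 52. The FOSL2 region at chr2:102227321-102228730 had a fold enrichment of 11.0 and a −log10 q of 207.6, and exceeded 94.7% of the FOSL2 list. Its JUNB partner at chr2:102227503-102228634 had a fold enrichment of 10.4 and a −log10 q of 87.5, and exceeded 98.1% of the JUNB list. The summits were 37 bp apart, about 40.6 kb downstream of the nearest IL1RL2 start and 15.2 kb before the gene's end. Elsewhere in IL1RL2, fold enrichments were low. A JUNB region at chr2:102240830-102241149, the only unshared JUNB region of the cluster, had a fold enrichment of 4.24. A FOSL2 region of 173 bp at chr2:102187572-102187744, with its summit 307 bp downstream of an IL1RL2 start, had the lowest FOSL2 value of the 33, 2.28, and a −log10 q of 1.87.

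IL1R1, the signalling IL-1 receptor, held 4 FOSL2 and 3 JUNB regions in its body, and all 3 JUNB regions were shared. The strongest FOSL2 region, at chr2:102165829-102166791 in the last part of the gene, had a fold enrichment of 10.7 (above 93.1% of its list). Its JUNB partner had a value of 5.99 (above 68.7% of its list), with the summits 65 bp apart. The other pairs lay together inside the body, upstream of the first IL1R1 start listed in the promoter table, at 102104604. In the pair at chr2:102098620-102099456, 5.64 kb before that start, the fold enrichments were 7.97 (FOSL2) and 5.74 (JUNB), with summits 9 bp apart. In the pair at chr2:102100208-102101089, 4.08 kb before it, they were 4.69 and 4.45. The summits of this last pair were 138 bp apart, the widest distance among the 14 pairs. The remaining FOSL2 region in the body, at 102095146 (summit), was weak, at 2.71. The promoter table lists 4 IL1R1 starts, from 102104604 to 102142746. All lay in the 64.7 kb between the pair at 4.08 kb and the strongest region, where neither factor had a region. Among all stretches between successive regions of either factor, 11.7% were at least as long and held 56.5% of the bases between regions. The gene body itself began farther upstream, at 102070390, before the pairs at 5.64 and 4.08 kb, and no start is listed there. Before the gene, a shared pair at chr2:102065315-102066237 had values of 7.12 and 5.72, and an unshared FOSL2 region next to it had 5.70.

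IL1R2, the decoy receptor gene, held 2 FOSL2 regions and no JUNB region in its body. The stronger of them, at chr2:102001491-102002314, had its summit 2.98 kb downstream of the inner IL1R2 start at 101998961. Its fold enrichment of 8.34 was the highest of the 19 unshared FOSL2 regions and exceeded 77.3% of the whole list. The weaker one, with its summit at 102020713, had a value of 3.47. The 3 shared regions within 50 kb of this gene lay outside its body, and 2 of them were at the ends of the long noncoding RNA gene LINC01127. The pair 8.33 kb upstream of IL1R2 had fold enrichments of 7.63 (FOSL2) and 4.74 (JUNB), and its summits lay 165 and 175 bp from one end of LINC01127. The pair 6.40 kb upstream of IL1R2 had 6.27 and 4.36, with summits 11 and 1 bp from the other end. The third pair lay on the other side, between IL1R2 and IL1R1, and had the values of 7.12 and 5.72 given above. Farther upstream, FOSL2 regions of 6.19 and 5.98 had no JUNB partner.

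IL1RL1, the IL-33 receptor gene, held 3 FOSL2 regions in its body and none of JUNB. Besides the region of 7.30 at the internal start, there was one of 3.36 with its summit 1.77 kb downstream of the outer start and one of 4.57 at 6.35 kb. Between IL1RL2 and IL1RL1, 3 further FOSL2 regions had fold enrichments of 2.52, 3.59 and 2.64. The region at the internal start was thus the strongest of the 6 FOSL2 regions near this gene, and the only one above the FOSL2 list's median of 5.56.

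IL18R1 and IL18RAP, which encode the chains of the IL-18 receptor, lay in a stretch with no region of either factor. It ran for 150.2 kb, from chr2:102337619-102487800, and took in the end of IL1RL1, both IL-18 receptor genes with their 5 annotated starts, and the start of SLC9A4, a sodium-hydrogen exchanger gene. Of the 84281 stretches between successive regions of either factor, 3.06% were at least as long, and these held 32.7% of all bases between regions. Whether reads can be placed throughout this stretch was not tested. Within 50 kb, IL18R1 had the 3 FOSL2 regions inside IL1RL1 alone. IL18RAP had regions on its far side, inside SLC9A4. The pair at chr2:102487801-102488643, 35.2 kb beyond the end of IL18RAP, was among the strongest, with fold enrichments of 10.3 (FOSL2, above 91.2% of its list) and 7.38 (JUNB, above 83.4% of its list). Both summits were at the same base. A FOSL2 region of 4.31 lay 48.8 kb from IL18RAP, the last inside the limit. The next FOSL2 region, 61.0 kb away, and its JUNB neighbour at 61.4 kb had higher values, 10.6 and 10.7, and were not counted.

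IL1RAP, the shared accessory chain, had the highest counts of the family: 7 of FOSL2 and 8 of JUNB inside its 145.7 kb body and 11 and 10 with the 50 kb on either side. It is also the longest member. Per 100 kb of body it had 4.81 FOSL2 regions, fewer than IL1RL1 (7.35) and IL1R2 (5.47), and 5.49 JUNB regions, where IL1RL2 had 3.56 and IL1R1 2.74. The 1955 protein-coding genes of 100 to 200 kb had a median of 4 FOSL2 (interquartile range 2 to 6) and 2 JUNB regions (1 to 4) in the body. At least 8 JUNB regions were found in the body of 2.18% of all protein-coding genes, most of which are shorter. Counting all listed regions, IL1RAP was the only member with more JUNB than FOSL2 regions in its body, as in 15.1% of the 13103 protein-coding genes with a region there. Its window, chr3:190464085-190709750, had a density of 44.8 per Mb for FOSL2 and 40.7 per Mb for JUNB, where chromosome 3 as a whole had 24.7 and 12.7. This window too was drawn around a gene, which limits the comparison with a whole chromosome. With regions of −log10 q of at least 10 only, the body held 5 regions of each factor, so JUNB no longer outnumbered FOSL2 (an alternative chosen after seeing the data). JUNB regions in the window then numbered 5 in place of 10, or 20.4 per Mb. That was 2.35 times the density of chromosome 3 under the same limit, against 3.21 times with all listed regions.

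**Figure D3:**
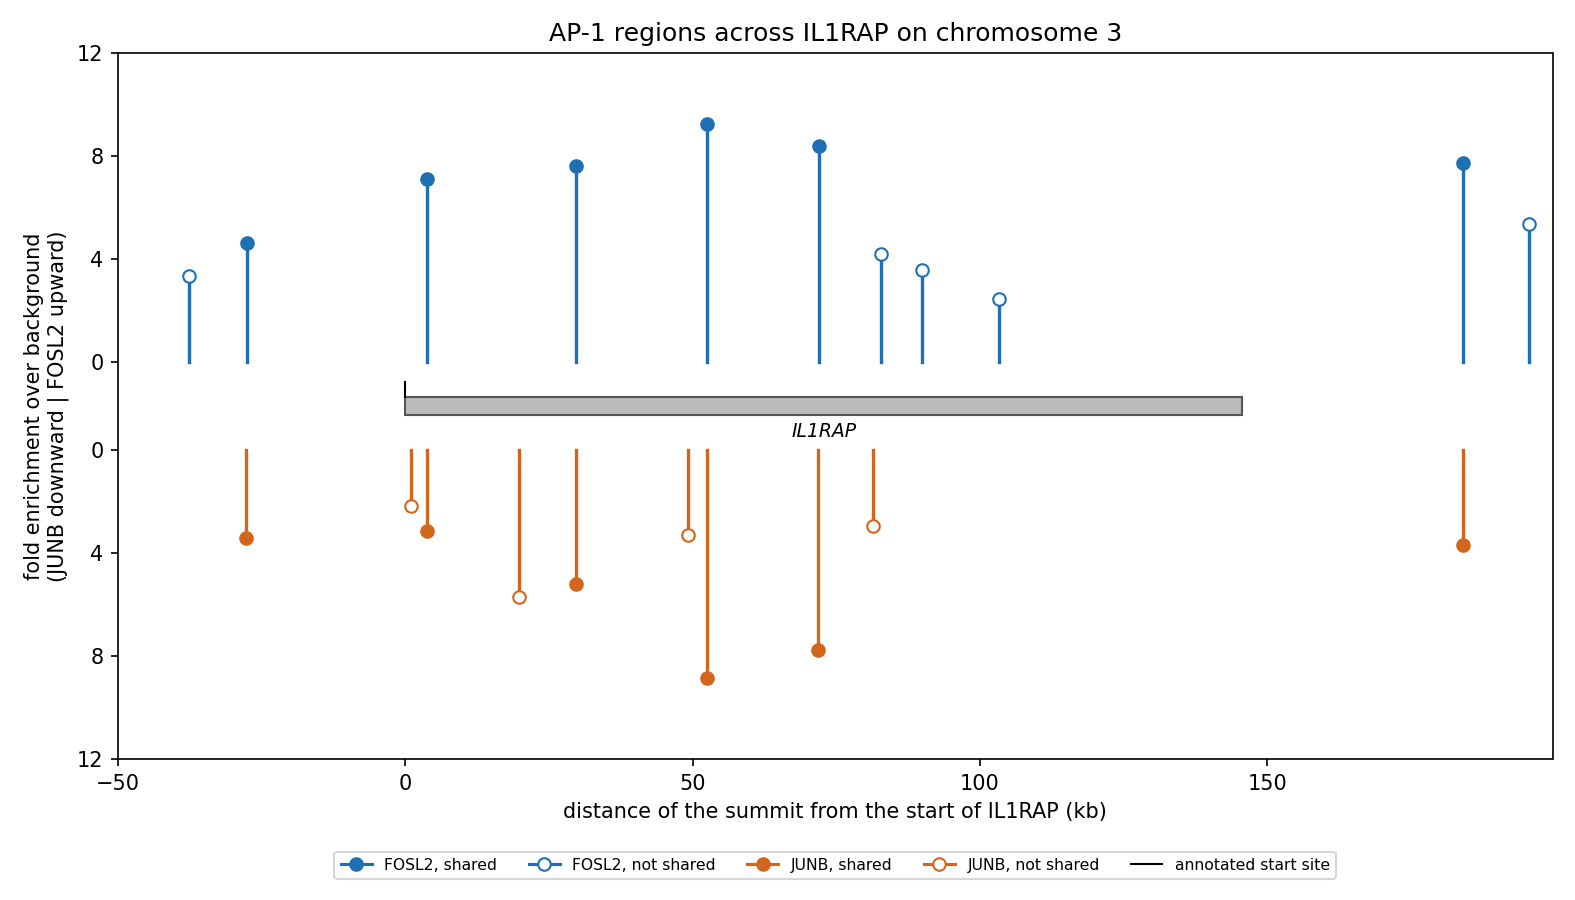
Summits of the 11 FOSL2 regions (blue, upward) and 10 JUNB regions (orange, downward) around IL1RAP, by distance in kb from its annotated start. Stem height is the authors' fold enrichment, filled circles are shared regions, open circles are not shared, the grey box is the gene body and the tick its start. The highest stems of both factors stand 52.5 kb into the gene, and the last 42.4 kb of the body have none.

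The regions inside IL1RAP had their summits in its first 103.3 kb. The strongest pair, at chr3:190566089-190567134, had fold enrichments of 9.24 (FOSL2, above 84.2% of its list) and 8.86 (JUNB, above 93.2% of its list), with summits 40 bp apart. The pair at chr3:190585468-190587090, 71.9 kb from the start, followed with 8.40 and 7.77, and its FOSL2 region of 1623 bp was the widest of the 33. A pair 29.8 kb from the start had 7.61 and 5.20, with summits 2 bp apart. At 3.73 kb from the start the factors stood differently in their lists: the FOSL2 value of 7.11 exceeded 66.4% of its list and the JUNB value of 3.15 exceeded 14.3% of its list. No shared region lay closer to the start.

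Inside IL1RAP, 4 of the 8 JUNB regions had no FOSL2 partner. One of them, at chr3:190533456-190534193, was the strongest unshared JUNB region of the family, with a fold enrichment of 5.72 (above 64.9% of its list) and a −log10 q of 28.9. The other 3 were weaker: 3.29, 2.97 and, 930 bp downstream of the start, 2.19, a value that exceeded 0.41% of the JUNB list. The FOSL2 regions without a partner had values of 4.19, 3.57 and 2.44 and lay deeper in the gene, from 82.8 to 103.3 kb from the start. From there, 80.4 kb held no region of either factor, through the end of IL1RAP to the noncoding gene LINC02013. At least as long were 8.59% of all stretches between successive regions, which held 49.9% of all bases between regions. A pair at LINC02013, 38.2 kb beyond IL1RAP, had 7.74 (FOSL2, above 72.2% of its list) and 3.70 (JUNB, above 26.6% of its list). Its summits lay 223 and 142 bp from an end of LINC02013. Upstream of IL1RAP, a pair of 4.63 and 3.42 lay 27.6 kb from the start, and a FOSL2 region of 3.36 lay 37.6 kb from it. A FOSL2 region of 5.36, 49.6 kb beyond the end, was the last inside the limit, and the nearest one outside it lay at 58.6 kb with 9.11. In all, 6 of 11 FOSL2 (54.5%, 95% Wilson interval 28.0 to 78.7) and 6 of 10 JUNB regions (60.0%, 31.3 to 83.2) were shared in this window. Over the whole lists, 41.1% of FOSL2 and 78.5% of JUNB regions were shared.

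Over both windows, the 14 pairs had summits a median of 39.5 bp apart, from 0 to 138, and 13 lay within 100 bp. Of all FOSL2 regions there, 14 of 33 were shared (42.4%, 27.2 to 59.2), and of all JUNB regions 14 of 19 (73.7%, 51.2 to 88.2). These shares lie beside 41.1% and 78.5% of the whole lists, which both intervals include. Median fold enrichments were 5.70 for FOSL2 and 4.74 for JUNB, against 5.56 and 4.79 over the whole lists. By window, FOSL2 medians were 5.84 in the cluster and 5.36 at IL1RAP, and JUNB medians were 5.72 and 3.56. The JUNB median at IL1RAP lay below the interquartile range of the whole JUNB list, which began at 3.62. In both windows together, shared FOSL2 regions had a median of 7.69 and unshared ones 3.59, and the corresponding JUNB values were 5.46 and 3.29. In the whole lists these were 7.85 and 4.40 for FOSL2 and 5.31 and 3.45 for JUNB. Both classes overlapped: shared FOSL2 regions ranged from 4.63 to 11.0 and unshared ones from 2.28 to 8.34. For JUNB the ranges were 3.15 to 10.4 and 2.19 to 5.72. In the top 10% of their lists by fold enrichment stood 3 of 33 FOSL2 and 2 of 19 JUNB regions (10.0% of each whole list). Within each list the medians of both windows together therefore lay close to those of all regions, though the JUNB median at IL1RAP alone was lower. A small number of sites in IL1RL2, IL1R1, IL1RAP and SLC9A4 held the high values.

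**Figure D4:**
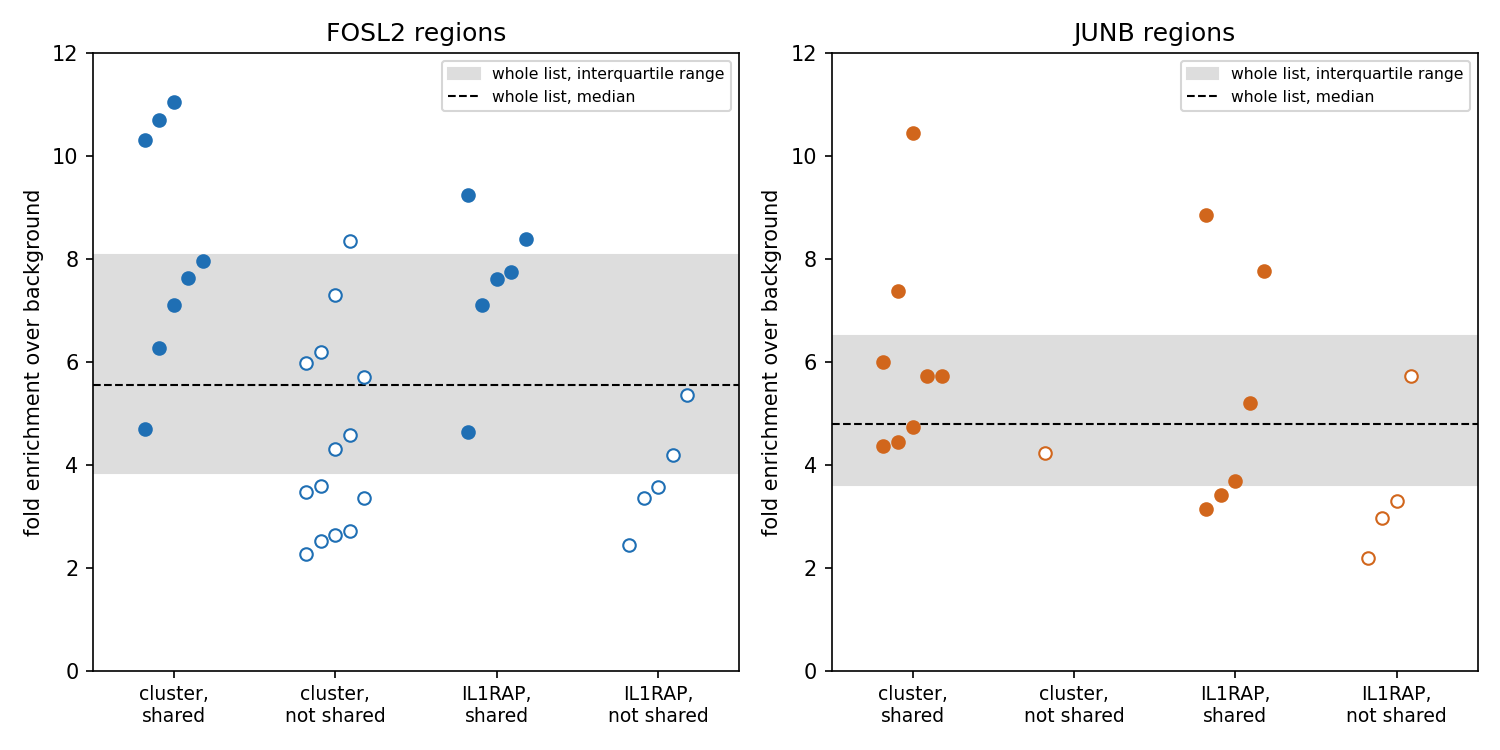
Fold enrichment of each FOSL2 region (left) and JUNB region (right), split by window and by whether the region touches one of the other factor. Each point is 1 region, the dashed line is the median of the whole list and the grey band its interquartile range. The shared regions of FOSL2 reach from 4.63 to 11.0, and most unshared regions lie under the dashed line.

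No farther than 1000 bp from either end of any protein-coding gene lay 1 of 33 FOSL2 summits, at IL1RL2, and 1 of 19 JUNB summits, at IL1RAP, against 6.78% and 12.8% of the whole lists. Farther inside a protein-coding gene lay 19 FOSL2 summits (57.6%) and 13 JUNB summits (68.4%), beside 46.2% and 44.3% of the whole lists. The windows were drawn around gene bodies, and the bodies of the 7 members alone cover 57.7% of them, so nothing is read from this difference. The internal IL1RL1 start counts as inside the gene here. Exons and introns were not separated.

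Other genes of the pathway were described by the same 50 kb rule. All 28 had a FOSL2 region (92.9% of protein-coding genes), 25 had a JUNB region (83.9%) and 23 had a shared region (77.6%), so the pathway too lay near the background. Among the 12 ligands and antagonists, 11 had regions of both factors. These are not separate loci, because several of the genes lie close together on chromosome 2 and share regions. IL36A, IL36B, IL36G and IL36RN, for example, had the same highest FOSL2 value, 10.1. IL18, the ligand of the IL18R1 and IL18RAP receptor, had 10 FOSL2 and 8 JUNB regions, up to 9.98 and 11.0. IL1B reached 8.43 and 8.0. IL33, the ligand of IL1RL1, had 1 FOSL2 region of 5.87 and no JUNB region. All 3 other receptors of the family had shared regions, among them IL1RAPL1 (up to 13.6 for FOSL2 and 10.6 for JUNB) and IL1RAPL2 (13.8 and 9.38), long genes known from neurons. Of the 13 signalling genes, 11 had a JUNB region. IRAK2, a kinase downstream of the receptors, reached 9.93 and 7.98, whereas IRAK1, a related kinase, and PELI2, a ubiquitin ligase, had FOSL2 regions alone.

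The windows of 8 type 2 cytokine receptor genes, such as IL4R, held 40.0 FOSL2 and 20.4 JUNB regions per Mb, and those of 7 interleukin-10 family receptor genes 50.3 and 33.9. Both IL-1 receptor windows together held 40.9 and 23.6 per Mb. Of their JUNB regions, 83.3% and 69.0% were shared, on either side of the 73.7% here. JUNB regions were found near 7 of 8 and 7 of 7 of these genes, against 5 of 7 for the interleukin-1 receptor family. Over all protein-coding genes the share was 83.9%. These differences were not tested. CRLF2, in the type 2 group, had no region of either factor, and whether reads can be placed there was not tested.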

How the data were processed

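FOSL2 and JUNB ChIP-seq of HaCaT cells was used as 1 deposited list of narrow peaks per factor, each standing for its 3 libraries together (75704 rows for FOSL2, of which 75703 on the autosomes and X were used, and 40061 for JUNB). Bowtie2, SAMtools 1.8, Picard 1.89, MACS2, deepTools and hg38 are the tools and build that the submitters' processing notes name. Their order and options, the control and the rule for combining libraries are not stated there. Per region, the authors deposited a fold enrichment (a ratio over background), a −log10 q value, a score and a −log10 p, which were not used, and a summit offset. Fold enrichments were used within their own list only.

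Gene bodies were those of RefSeq (GRCh38.p14), and starts and sequences came from its promoter table. All 7 members and the 43 genes of the other lists matched by symbol. Coordinates count from 1. Shared regions have at least 1 bp in common. Shares have 95% Wilson intervals. Computation used Python 3.11.15 with pandas 2.3.3, numpy 2.4.6 and scipy 1.17.1, and region overlaps and window counts were tested on simulated data. Alternatives were windows of 10 and 0 kb, −log10 q of at least 10, a reciprocal overlap of 50%, summits within 100 bp, gene ends within 2500 bp and densities over all chromosomes. The members and lists were chosen with earlier results of these data known. Named were the 7 members, shared regions and the 3 strongest unshared regions per window and factor, and the 4 pathway genes with both factors and the highest JUNB values; weaker unshared regions, and IL33, IRAK1, IRAK2 and PELI2, were added after their values were seen.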

Additional observations from a re-analysis of the deposited data

How the results depend on the processing

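Leaving out replicates was not possible, because each list stands for 3 libraries. No paired analysis was possible because the lists carry no value per library. Of 56 recomputed values over whole windows or the pathway, 7 moved by more than 1.5 times or out of their interval. Of 42 recomputed counts per gene 20 moved, 17 of them with a narrower window. With 10 kb around genes, FOSL2 regions at IL1RAP fell from 11 to 7. With gene bodies alone they were also 7, and regions of the cluster fell from 22 to 11 for FOSL2 and from 9 to 5 for JUNB. With −log10 q of at least 10, JUNB regions at IL1RAP numbered 5 and the shares of summits near gene ends were 0% for both factors, so both such summits belong to weak regions. Shares of shared regions stayed inside their intervals under every alternative tried, and median fold enrichments and the ratios of window density to chromosome density stayed within 1.5 times. The JUNB density at IL1RAP itself fell from 40.7 to 20.4 per Mb with −log10 q of at least 10. Depth per library is unknown, and a missing region may be one that was too weak to be listed.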
